A study of Mus musculus with 6 samples.

Results

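The 42 genes described here are those of white fat cells and of lipid storage, matched by gene symbol to the 55487 gene IDs of a count table from mouse embryonic rib cages. All 42 were found, and all 42 were among the 26596 genes that reached a sum of 10 counts across the 6 libraries. They were divided by what is generally known of their expression into 12 fat-cell-specific genes, 14 genes shared with a few other tissues such as liver, muscle or skin, and 16 widely expressed lipid genes. Fabp4 was placed in the fat-cell-specific class although capillary endothelium also makes it. In the study, RNA-Seq was carried out on rib cages of embryos at 16.5 dpc (days post coitum), 3 control embryos (E420, E434 and E435) and 3 mutant embryos (E423, E433 and E440). The mutants were Col2-cre;Foxc1-/-;Foxc2-/- embryos, in which the forkhead transcription factor genes Foxc1 and Foxc2 were deleted from floxed alleles by Cre recombinase. Col2-cre is active in chondrocytes, the perichondrium and forming ossification centres, so fat cells were not the intended target. Embryos came from Col2-cre+/-;Foxc1+/Δ;Foxc2+/Δ males and Foxc1fl/fl;Foxc2fl/fl females on a mixed C57B6 and Black Swiss background, so mutants and controls alike carry a floxed maternal copy of both genes. The controls are labelled wild type, whereas the study's methods call its controls Cre-negative and its comparison animals littermates, and the paternal alleles of each control are not given. Which embryos shared a litter is not given, and each library is named for a single embryo.

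White adipocytes store fatty acids as triglyceride in a single large lipid droplet. Their differentiation is driven by PPARγ together with C/EBP transcription factors, which switch on genes for fatty acid uptake, triglyceride assembly, droplet coat proteins and secreted adipokines such as adiponectin and leptin. Stored triglyceride is released by a series of lipases under hormonal control. Fatty acid synthesis and much of triglyceride assembly, by contrast, also take place in most growing cells. The rib cage lies beneath skin and muscle, and precursors of subcutaneous fat are found in the loose connective tissue around them.

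Libraries held between 37853988 and 47794799 counts, and levels are given in CPM, the count of a gene relative to its library size after TMM scaling, in which 3 counts correspond to between 0.0618 and 0.0764 CPM. Values are listed in the order E420, E435, E434 for controls and E423, E440, E433 for mutants, because the libraries were not equally distinct. Over genes, log2 ratios had an SD of 0.156 between E420 and E435 and 0.135 between E423 and E440, against 0.493 to 1.58 for the other pairs, so E434 and E433 each stood apart from the other libraries of their group. All 6 were kept as separate samples, as labelled. The targeted genes had lower levels in every mutant library, with Foxc1 at 23.1, 24.2 and 36.9 CPM in controls and 3.56, 3.51 and 9.61 CPM in mutants, and Foxc2 at 1.99, 3.22 and 4.83 CPM in controls and 0.649, 0.737 and 1.14 CPM in mutants. Cartilage markers were detected in all libraries but unevenly. The 10 chondrocyte genes summed to 1687, 1588 and 23772 CPM in controls and 564, 535 and 8730 CPM in mutants. The 11 keratinocyte genes summed to more than these in E420 and E435 (5593 and 6450 CPM) and in E423 and E440 (28561 and 28698 CPM). They summed to less in E434 and E433 (18.9 and 3335 CPM). Because RNA of whole tissue was sequenced, a larger number of cells of a type and more RNA per cell cannot be told apart.

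Genes of white fat cells had higher levels on average in mutant than in control rib cages, with the highest fold changes in the fat-cell-specific class and small ones among most enzymes of fatty acid synthesis. The level was higher on average in mutants for 36 of the 42 genes, with a median log2 fold change of 1.36, where 51.2% of all genes tested were higher and the median over all genes was 0.0081. The median was 4.18 over the 12 fat-cell-specific genes (2.71 with Lep and Retn, which had no counts in controls, at their lower bounds). It was 1.73 over the 14 genes shared with a few tissues and 0.20 over the 16 widely expressed genes. The classes were drawn up with earlier results of these data known, so their order is a description only. Under the quasi-likelihood test of edgeR, with Benjamini-Hochberg adjustment over all genes, 0 of the 42 passed the limits on adjusted p (under 0.1) and on log2 fold change (1 or more), as 0.0338% of all genes did in the higher direction and 0.0301% in the lower. At an unadjusted p under 0.05, edgeR placed 26 of the 42 higher (5.9% of all genes) and 0 lower (4.7% of all genes). DESeq2's Wald test, run as an alternative on the same counts, called 17 higher (1.62% of the genes it tested) and 0 lower (0.557%). For 20 of the 42, the 3 mutant libraries all lay above the 3 controls, as they did for 6.81% of all genes, and for 0 they all lay below, as for 8.21% of all genes.

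These calls depended on mutant E433. Without E433, edgeR called 21 of the 42 higher (2.84% of all genes) and 0 lower (1.37%), and without both E433 and E434 it called 25 higher (5.66%) and 0 lower (2.59%), but the mutants are then represented by the close pair E423 and E440 alone. With each close pair summed to a single sample, edgeR called 0 of the 42 in either direction (0% of all genes) and placed 12 higher (1.54%) and 0 lower (1.35%) at an unadjusted p under 0.05. On the same summed pairs, DESeq2 called 6 higher (0.328%) and 0 lower (0.251%), the 6 being Adipoq, Plin1, Cidec, Retn, Klb and Pparg. DESeq2 without E433 called 23 higher (3.73%) and 0 lower (2.18%).

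**Figure D1:**
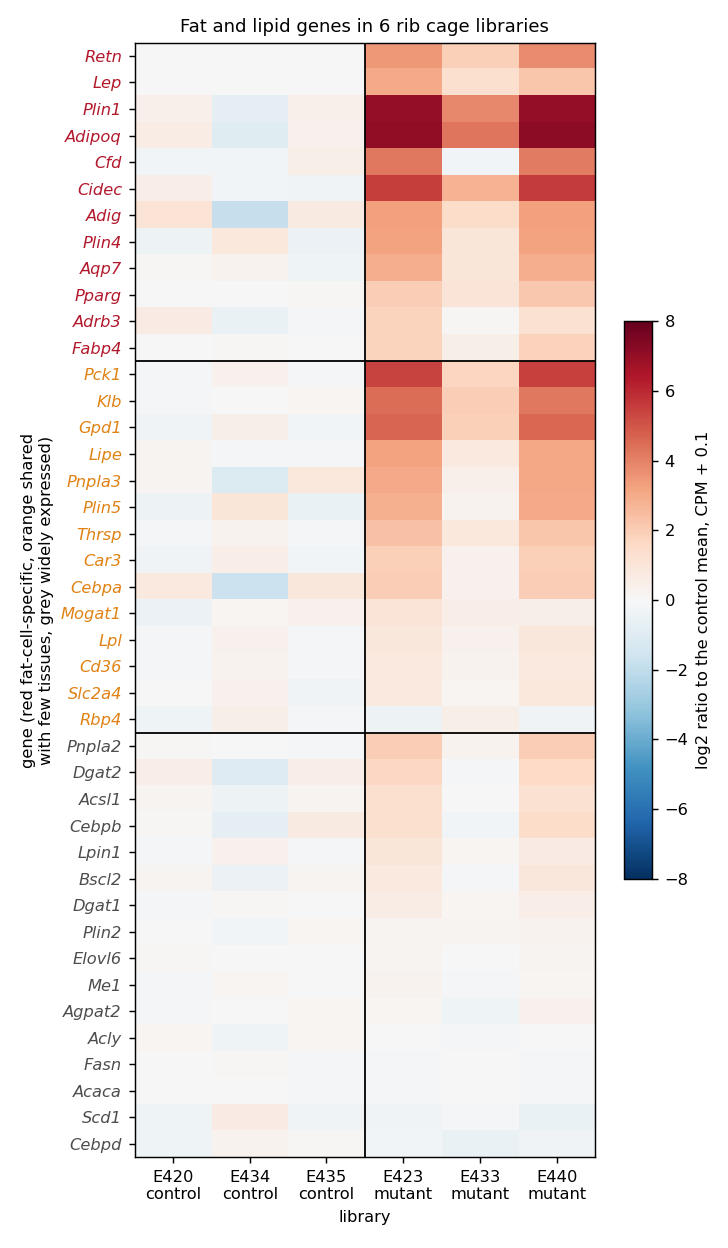
Log2 ratio of each gene's level (CPM + 0.1) to its mean log2 level over the 3 controls, for the 42 genes (rows, names coloured by class) in the 6 libraries (columns). Fat-cell-specific genes are darkest in mutants E423 and E440 and paler in E433, while most widely expressed genes stay near white in all 6 libraries.

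Among transcription factors, Pparg, which encodes the master regulator of adipocyte differentiation, separated the groups most clearly. Pparg (ENSMUSG00000000440.12, chromosome 6 from 115360951 to 115490399 in the GRCm38 build) had 5.57, 5.92 and 5.38 CPM in controls and 22.8, 24.9 and 11.6 CPM in mutants. The controls lay close together and every mutant was above them, with E433 at 48.7% of the mean of E423 and E440. Its mean was 5.62 ± 0.27 CPM in controls and 19.7 ± 7.12 CPM in mutants (SD, n = 3 each), giving a log2 fold change of 1.81 (SE, standard error, 0.29, edgeR adjusted p = 0.158). DESeq2 gave an adjusted p of 6.56e-08.

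The C/EBP factors were less uniform. Cebpa, which acts with PPARγ in late adipogenesis and is also expressed in liver and epidermis, had 66.9, 70.4 and 11.7 CPM in controls and 150, 149 and 49.1 CPM in mutants. Control E434 and mutant E433 were each the lowest of their group, and E433 lay below controls E420 and E435, so the groups overlapped (log2 fold change 1.23, SE 0.71, edgeR adjusted p = 0.577). Cebpb, an early adipogenic factor, had 12.3, 19 and 6.86 CPM in controls and 28.6, 32.2 and 10.1 CPM in mutants, with the same overlap. Cebpd, the other early factor, had 15.7, 20.7 and 23.7 CPM in controls and 17.2, 16.3 and 13.5 CPM in mutants (log2 fold change -0.36, SE 0.18, edgeR adjusted p = 0.530).

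Transcripts of 4 of the 5 secreted proteins were at or near 0 in controls. Adipoq (ENSMUSG00000022878.5, chromosome 16 from 23146536 to 23158028), the gene of adiponectin, had 18, 18 and 4 counts in controls, or 0.458, 0.371 and 0.0882 CPM, and 2091, 2454 and 310 counts in mutants, or 50.3, 53.2 and 7.19 CPM. Each mutant was therefore above every control, although E433 reached only 13.9% of the mean of the other mutants. The mean was 121-fold higher in mutants, and E433 alone was 23.5-fold above the control mean. Without E433, the adjusted p for Adipoq was 0.00333 from edgeR, against 0.146 with all 6 libraries.

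Lep, which encodes the satiety hormone leptin, had 0 counts in each control and 30, 17 and 6 counts in E423, E440 and E433. Taking 3 counts per control library as the floor, its mean level was at least 6.01-fold higher in mutants. Bounds of this kind would be lower if counted per read pair. Retn, the gene of the adipokine resistin, likewise had 0 counts in each control and 42, 60 and 12 counts in the mutants, at least 12.7-fold higher. All mutants thus held reads of both adipokines where no control did.

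Cfd, which encodes adipsin (complement factor D), had 0, 3 and 0 counts in controls and 86, 90 and 0 in mutants. The ratio of the pooled levels was 59.7 (95% exact interval for counting error 20.1 to 292). That interval treats the ends of a read pair as independent, so it is too narrow. E433 held none of these reads, however, and lay with the controls. Rbp4, the gene of the retinol carrier made by both fat and liver, was the exception among the secreted proteins. Its levels were 10.1, 12 and 18.3 CPM in controls and 9.81, 10.6 and 17.7 CPM in mutants, highest in E434 and E433, with a log2 fold change of -0.08 (SE 0.31, edgeR adjusted p = 0.940).

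The proteins that coat and enlarge the lipid droplet divided in the same manner. Plin1 (ENSMUSG00000030546.14, chromosome 7 from 79720218 to 79732903), the perilipin that guards the droplet of mature fat cells, had 0.280, 0.289 and 0.0662 CPM in controls and 38.7, 38.0 and 4.08 CPM in mutants. The groups did not overlap, and the mean was 127-fold higher in mutants (log2 fold change 6.98, SE 1.07, edgeR adjusted p = 0.155 and 1.02e-08 from DESeq2). Cidec, which fuses small droplets into large ones, had 0.305, 0.124 and 0.132 CPM in controls and 12.6, 13.4 and 1.76 CPM in mutants, 49.4-fold higher on average. In both genes E433 held the lowest mutant level, at 10.7% and 13.6% of the mean of E423 and E440.

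Plin4, a perilipin of nascent droplets, had 2.32, 2.16 and 5.6 CPM in controls and 29.8, 29.6 and 6.13 CPM in mutants, with E433 barely above E434. Adig, which encodes the small membrane protein adipogenin, had 0.662, 0.495 and 0 CPM in controls and 3.39, 3.36 and 0.882 CPM in mutants, again without overlap. Plin5, the perilipin of muscle and other fat-burning tissues, had 1.04, 0.948 and 2.85 CPM in controls and 10.9, 12.5 and 1.74 CPM in mutants. Here the groups overlapped, because E433 was below E434.

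Widely expressed droplet genes showed smaller differences. Plin2, the perilipin found on droplets of most cells, had 34.6, 36.7 and 29.0 CPM in controls and 38.3, 40.6 and 39.4 CPM in mutants, apart between groups but by only 0.24 on the log2 scale (SE 0.10, edgeR adjusted p = 0.488). Bscl2, the gene of seipin, which organises droplet budding, had 31.5, 31.5 and 19.9 CPM in controls and 47.5, 50.1 and 25.5 CPM in mutants, with E433 within the control range.

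Sequence upstream of the transcription start was examined for 32 of the 42 genes, those with an entry in the RefSeq promoter table (GRCm38.p6). The 250 bases before each start were searched for motifs on both strands as plain letters, so that a match is no more than a run of letters. The motif TTGCNNAA, the core that C/EBP factors bind, was in 4 of the 14 promoters of 10 fat-cell-specific genes (28.6%), in 1 of the 13 promoters of genes shared with few tissues (7.69%), in 0 of the 16 of widely expressed genes and in 9.56% of all 32851 promoters. AGGTCA, the half-site of nuclear receptors such as PPARγ, was in 5 of the 14 (35.7%), in 5 of the 16 of widely expressed genes (31.2%) and in 14% of all promoters. CCAAT was in 4 of the 14 (28.6%) and in 33.8% of all promoters, and a CCAAT may share bases with a TTGCNNAA. Several promoters can belong to the same gene, and these shares describe a small number of windows. The 150 bases before the start are shown for 4 genes that held such letters, with the matches in capitals: CCAAT or its reverse complement ATTGG for Adipoq (chr16:23146386-23146535, plus strand), TTGCNNAA for Lep (chr6:29060071-29060220, plus strand) and Plin1 (chr7:79732777-79732926, minus strand), and AGGTCA, read as TGACCT on the strand shown, for the first listed start of Aqp7 (chr4:41048137-41048286, minus strand).
Adipoq: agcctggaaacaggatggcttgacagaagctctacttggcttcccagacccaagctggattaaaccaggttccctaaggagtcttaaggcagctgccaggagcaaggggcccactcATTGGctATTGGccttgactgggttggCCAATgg
Lep: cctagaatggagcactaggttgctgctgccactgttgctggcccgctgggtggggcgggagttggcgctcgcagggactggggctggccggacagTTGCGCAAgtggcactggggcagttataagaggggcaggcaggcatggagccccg
Plin1: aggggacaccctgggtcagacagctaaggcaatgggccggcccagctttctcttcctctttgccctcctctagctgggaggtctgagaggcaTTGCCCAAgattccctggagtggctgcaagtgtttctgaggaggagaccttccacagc
Aqp7: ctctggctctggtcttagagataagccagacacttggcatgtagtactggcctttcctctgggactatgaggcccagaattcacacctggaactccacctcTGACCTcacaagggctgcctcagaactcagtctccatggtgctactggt

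Lipases, which take up fatty acids from blood lipoproteins or release them from the droplet, were all higher on average in mutants. Lipe, the gene of hormone-sensitive lipase, had 6.26, 4.99 and 4.77 CPM in controls and 50.8, 46.5 and 9.28 CPM in mutants, without overlap (log2 fold change 2.74, SE 0.61, edgeR adjusted p = 0.292 and 0.00527 from DESeq2). Pnpla2, which encodes the adipose triglyceride lipase ATGL that starts fat breakdown, had 13.9, 11.8 and 12.9 CPM in controls and 49.9, 49.4 and 15.7 CPM in mutants. The controls were tight and E433 was 1.22-fold above their mean, while E423 and E440 were far above it. Of the 16 widely expressed genes, Pnpla2 alone was called higher by DESeq2 (adjusted p = 0.00214).

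Lpl, the lipase that frees fatty acids in capillaries and is also made by muscle, had 116, 116 and 163 CPM in controls and 244, 241 and 166 CPM in mutants, so E433 was only just above E434 (log2 fold change 0.72, SE 0.20, edgeR adjusted p = 0.380). Pnpla3, a close relative of Pnpla2 found in liver and fat, had 0.305, 0.536 and 0.0662 CPM in controls and 2.79, 2.93 and 0.371 CPM in mutants, with E433 inside the control range.

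In triglyceride assembly, the enzymes that supply the glycerol backbone, Gpd1 and Pck1, had higher log2 fold changes than those that attach the fatty acids. Gpd1 (chromosome 15 from 99717515 to 99725005), the glycerol-3-phosphate dehydrogenase prominent in fat cells, had 5.6, 5.81 and 9.49 CPM in controls and 170, 164 and 25.2 CPM in mutants. All mutants were above all controls, and E433 exceeded the control mean by 3.62-fold. The log2 fold change was 4.10 (SE 0.74, edgeR adjusted p = 0.206 and 3.76e-05 from DESeq2). Pck1, which encodes the cytosolic carboxykinase used for glyceroneogenesis in fat and for glucose synthesis in liver, had 0, 0 and 2 counts in controls and 192, 222 and 12 counts in mutants. The ratio of the pooled levels was 217 (95% exact interval for counting error 59.6 to 1796, too narrow because the ends of a read pair were counted separately).

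Among the acyltransferases and the phosphatase of the same pathway, Dgat2, Agpat2 and Lpin1 overlapped between groups. Dgat2, which makes triglyceride in fat, liver and skin, had 118, 121 and 40.02 CPM in controls and 257, 254 and 79.2 CPM in mutants, with E434 and E433 the lowest of their groups. Dgat1, its more ubiquitous counterpart, had 11.7, 13.1 and 14 CPM in controls and 19.7, 18.6 and 14.5 CPM in mutants. Those groups did not overlap, although E433 was above E434 by 1.04-fold only. Agpat2, the acyltransferase lost in a form of lipodystrophy, had 9.37, 11.1 and 9.84 CPM in controls and 11.3, 12.6 and 7.82 CPM in mutants (log2 fold change 0.06, SE 0.19, edgeR adjusted p = 0.927). Log2 fold changes were 0.61 for Lpin1, the phosphatidate phosphatase, and 1.04 for Mogat1, a monoacylglycerol acyltransferase with at most 14 counts in any library.

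Genes for uptake and for hormone signals all had positive log2 fold changes, from 0.59 to 4.55. Fabp4 (chromosome 3 from 10204088 to 10208576), a carrier of fatty acids within fat cells that capillary endothelium also makes, had 125, 128 and 140 CPM in controls and 457, 474 and 178 CPM in mutants. The groups did not overlap, with means of 131 ± 7.72 CPM and 370 ± 166 CPM (SD, n = 3 each), a log2 fold change of 1.5 (SE 0.35, edgeR adjusted p = 0.332 and 0.00038 from DESeq2). The 8 endothelial markers summed to 482 to 606 CPM in controls and 455 to 568 CPM in mutants. Aqp7, the glycerol channel of fat cells whose upstream sequence is shown above, had 1.04, 0.742 and 1.24 CPM in controls and 8.11, 7.89 and 2.06 CPM in mutants, also without overlap.

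Klb encodes β-Klotho, the co-receptor that lets fat and liver respond to FGF21. Klb (chromosome 5 from 65348314 to 65384007) had 0.127, 0.186 and 0.154 CPM in controls and 5.65, 4.70 and 0.882 CPM in mutants. Each mutant was clear of the controls, and the log2 fold change was 4.55 (SE 0.76, edgeR adjusted p = 0.183 and 4.54e-09 from DESeq2). Adrb3, the β3-adrenergic receptor that triggers fat breakdown, had 11, 6 and 3 counts in controls and 30, 21 and 7 counts in mutants, and its groups overlapped.

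Uptake genes that muscle shares with fat differed less. Cd36, the fatty acid translocase, had 99.2, 97.6 and 134 CPM in controls and 187, 191 and 133 CPM in mutants. Slc2a4, the insulin-responsive glucose transporter GLUT4, had 32.0, 27.2 and 41.7 CPM in controls and 56.4, 58.5 and 37.3 CPM in mutants, and Acsl1, which activates fatty acids for storage, had a log2 fold change of 0.94 (SE 0.35, edgeR adjusted p = 0.443). In each of these genes E433 lay within the control range. Car3, the carbonic anhydrase abundant in fat and slow muscle, followed the same order, with 341, 359 and 590 CPM in controls and 1542, 1586 and 532 CPM in mutants (log2 fold change 1.5, SE 0.44, edgeR adjusted p = 0.389 and 0.0057 from DESeq2).

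**Figure D2:**
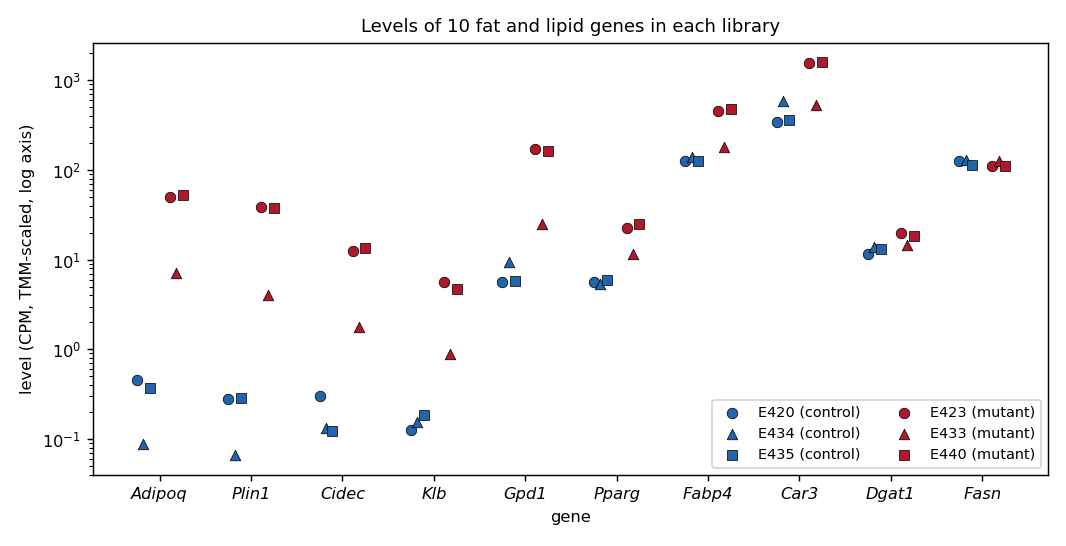
Level of 10 genes in each library, in TMM-scaled CPM on a log axis, with controls in blue, mutants in red and a marker for each embryo. Adipoq, Plin1, Cidec and Klb lie below 0.5 CPM in all controls and above 0.8 CPM in all mutants, with E433 lowest of the mutants, while Fasn lies between 111 and 130 CPM in all 6 libraries.

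Most enzymes of fatty acid synthesis had similar levels in the groups, and 4 of the 7 genes were negative in log2 fold change. Fasn (chromosome 11 from 120805846 to 120824547), the gene of fatty acid synthase, had 127, 114 and 130 CPM in controls and 111, 111 and 126 CPM in mutants. The groups overlapped, with a log2 fold change of -0.09 (SE 0.09, edgeR adjusted p = 0.758). Acaca and Acly, which supply malonyl-CoA and acetyl-CoA, had log2 fold changes of -0.10 (SE 0.08) and -0.08 (SE 0.15). Scd1, the stearoyl-CoA desaturase, had 27.8, 28.6 and 54.9 CPM in controls and 28.6, 24.8 and 33.5 CPM in mutants, highest in E434.

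Elovl6, which lengthens palmitate, and Me1, the malic enzyme that supplies NADPH, had log2 fold changes of 0.16 (SE 0.10) and 0.11 (SE 0.13). Of the 7 genes in this group, only Thrsp separated the groups. Thrsp encodes Spot 14, a small protein of lipogenic tissues with no enzyme activity of its own. Its levels were 6.67, 6.80 and 8.82 CPM in controls and 38.2, 35.2 and 13.1 CPM in mutants, a log2 fold change of 1.96 (SE 0.40, edgeR adjusted p = 0.260 and 1.22e-05 from DESeq2).

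**Figure D3:**
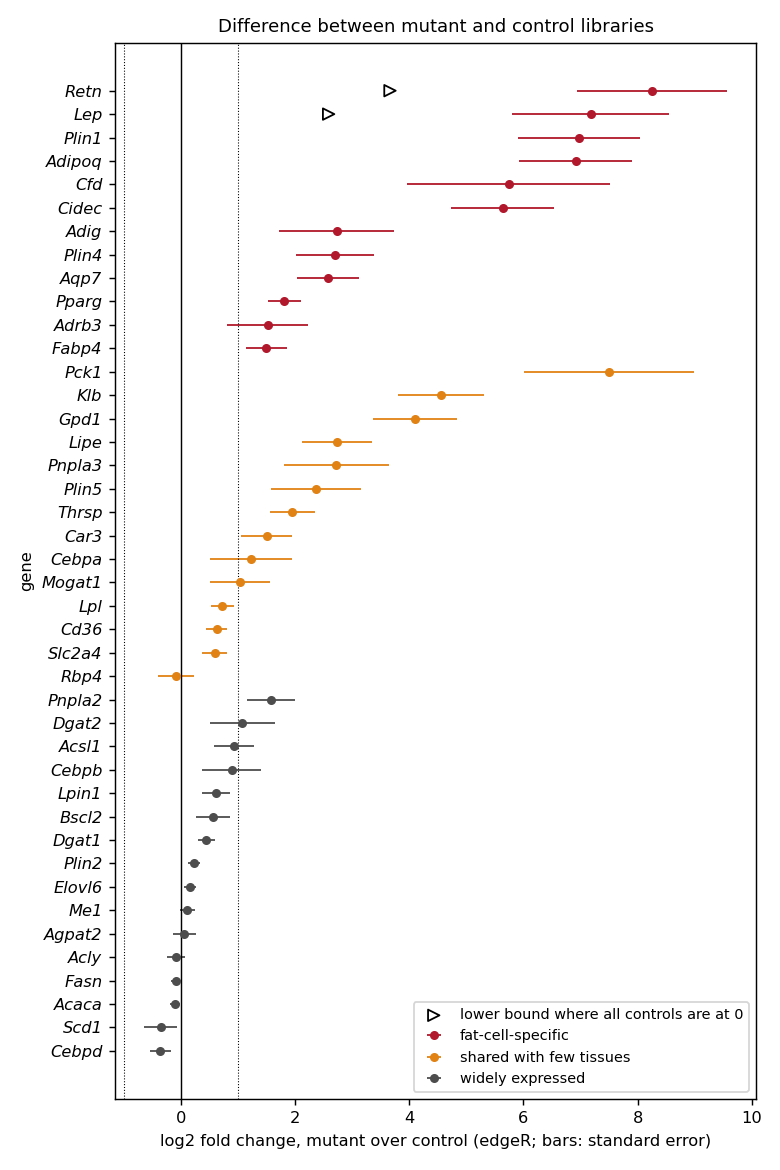
Log2 fold change of mutant over control for the 42 genes (points, edgeR), ordered within each class, with dotted lines at -1 and 1. Bars are standard errors derived from the edgeR F statistic, and those of Retn and Lep do not bound the fold change. All 12 fat-cell-specific genes lie to the right of 1, and open triangles mark lower bounds for Retn and Lep, which had 0 counts in every control.

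Transcripts were compared between genes only per length, as RSEM TPM (transcript abundance corrected for length and library size). On this scale, the mean in controls was 0.387 for Adipoq, 0.160 for Plin1 and 0.180 for Cidec, against 28.5 for Fasn, 226 for Fabp4 and 380 for Car3. In mutants, the means were 42.8 for Adipoq, 19.7 for Plin1, 9.97 for Cidec, 27.5 for Fasn, 610 for Fabp4 and 1034 for Car3. Adipoq was thus below Fasn in controls and above it in E423 and E440 (59.3 and 60.2 TPM), while in E433 it was 8.91 TPM.

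The 3 mutants were not alike in these genes. E433 was the lowest of the mutants in 36 of the 42 genes and in all 12 of the fat-cell-specific class. The share over all genes was not taken. E433 was also lowest for 11 of 11 keratinocyte, 9 of 10 skeletal muscle, 7 of 8 osteoblast and 7 of 12 brown adipocyte markers. For preadipocyte and macrophage markers it was 2 of 8 each, and for hepatocyte, chondrocyte and endothelial markers 0. In E423 and E440 together, 36 of the 42 were above all controls (23.7% of all genes), whereas in E433 20 were (25.2% of all genes). E433 lay above all controls but below E423 and E440 in 18 of the 42, including 10 of the 12 fat-cell-specific genes, 6 of the 14 shared genes and 2 of the 16 widely expressed genes, where 3.87% of all genes did so. Relative to the mean log2 level of the controls, the fat-cell-specific genes had a median log2 ratio of 3.27 in E423, 3.26 in E440 and 1.15 in E433. It was between -0.15 and 0.04 in the controls. Over the widely expressed genes it was 0.27, 0.30 and -0.06 in the same mutants.

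Markers of several other tissues also differed between libraries. The 11 keratinocyte genes, led by Krt10, Krt1 and Lor, summed to 5593, 6450 and 18.9 CPM in controls and to 28561, 28698 and 3335 CPM in mutants. Of these, 11 of 11 were positive in log2 fold change (51.2% of all genes) and 1 was at 0 in E434. For 1 the mutants all lay above the controls (6.81% of all genes). Adipoq had 0.458, 0.371 and 0.0882 CPM in controls E420, E435 and E434 and 50.3, 53.2 and 7.19 CPM in mutants E423, E440 and E433. Within each group, the library with the lowest keratinocyte sum also had the lowest Adipoq level. Between groups, E420 and E435 had higher keratinocyte sums than E433 and lower Adipoq levels. The relation of the fat gene levels to keratinocyte RNA was not tested. E433 was above all controls in 10 of the 12 fat-cell-specific genes. It was not in Cfd (0 counts against 3 in E435) or Adrb3 (0.162 CPM against 0.280 CPM in E420). The 10 skeletal muscle genes, led by Acta1, Mylpf and Myh3, summed to 15373, 15663 and 25469 CPM in controls and 34813, 33904 and 19901 CPM in mutants. Of these, 9 of 10 were positive and 0 were apart, where the mutants all lay above for 6.81% of all genes and all below for 8.21%.

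The 11 hepatocyte genes, led by Alb, Afp and Trf, summed to between 59.1 and 90.9 CPM in controls, to 66.7 and 65.4 CPM in E423 and E440 and to 802 CPM in E433, the mutant with the lowest levels of fat genes, and none was at 0 in any library. Chondrocyte markers were lowest in E423 and E440, the libraries with the highest fat-cell levels. The 8 osteoblast markers, of which Ibsp, Spp1 and Alpl had the highest counts, summed to 1640, 1707 and 1695 CPM in controls E420, E435 and E434 and 843, 834 and 345 CPM in mutants E423, E440 and E433. For 8 of 8 the mutants all lay below the controls (8.21% of all genes), and E433 had the lowest sum. EdgeR called 1 of them lower (0.0301% of all genes) and DESeq2 7 (0.557%). Macrophage markers summed to 303 to 316 CPM in controls and 242 to 288 CPM in mutants. The part of skin, muscle, liver, cartilage or bone RNA in the fat gene levels was not tested.

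**Figure D4:**
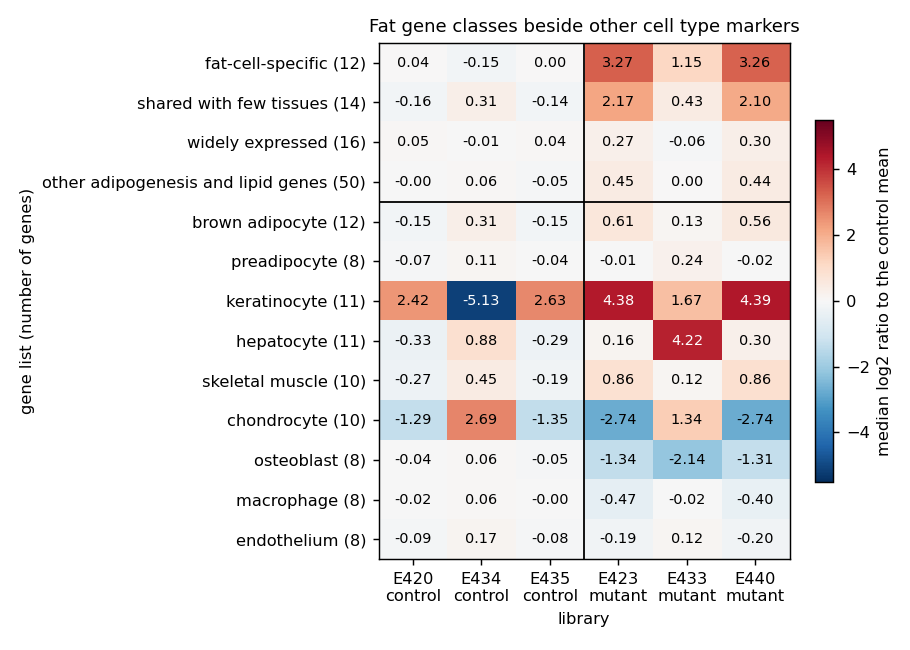
Median log2 ratio to the mean log2 level of the controls (CPM + 0.1) in the 6 libraries. The top 4 rows are the gene classes of this report and the rows below are marker lists of other cell types. The low keratinocyte levels of E434 lower this reference: Krt5 in E433 is at 2.01 here but at 0.753 of the mean CPM of controls. Fat-cell-specific genes are at 3.27 and 3.26 in E423 and E440 and 1.15 in E433, keratinocyte markers range from -5.13 in E434 to 4.39 in E440, and preadipocyte markers stay between -0.07 and 0.24.

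A further 50 genes of adipogenesis and lipid metabolism, listed by function, had a median log2 fold change of 0.32, with 35 positive and 15 negative. With edgeR 0 of the 50 passed the limits in either direction, 14 were higher and 3 lower at an unadjusted p under 0.05 (5.9% and 4.7% of all genes), and DESeq2 called 5 higher and 0 lower (1.62% and 0.557%). For 10 of the 50 the mutants all lay above the controls (6.81% of all genes) and for 3 they all lay below (8.21% of all genes), so the number below is near the share over all genes.

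Of those 10, Acvr1c, Mrap and Angptl8 had the highest log2 fold changes. Acvr1c, which encodes the activin receptor ALK7 found in fat cells, had 0.102, 0.0412 and 0.0882 CPM in controls and 5.27, 3.86 and 1.18 CPM in mutants (log2 fold change 5.45, SE 0.71, edgeR adjusted p = 0.145 and 7.48e-12 from DESeq2). Mrap, an accessory protein of the corticotropin receptor that is expressed in adrenal gland and fat, had 0.178, 0.289 and 0.0882 CPM in controls and 8.76, 9.08 and 1.04 CPM in mutants. Angptl8, which encodes a secreted regulator of lipoprotein lipase, had 2, 1 and 4 counts in controls and a log2 fold change of 3.46. In all 3 genes E433 was again the lowest mutant and above the controls.

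The 3 genes below the controls in every mutant are given as values alone, since 3 of 50 does not exceed the share over all genes. Hilpda, an inhibitor of ATGL, had 13.0, 11.9 and 12.6 CPM in controls and 8.85, 9.02 and 10.7 CPM in mutants (log2 fold change -0.39, SE 0.12, edgeR adjusted p = 0.395). Elovl5, an elongase of polyunsaturated fatty acids, and Insig1, which restrains sterol and fatty acid synthesis, had log2 fold changes of -0.37 (SE 0.11) and -0.34 (SE 0.10).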

How the data were processed

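RNA-Seq libraries of rib cages cleaned of connective tissue were made from 3 control and 3 mutant embryos, grouped by the genotype in the sample labels. Per the labels and file headers, the authors aligned reads to GRCm38 with HISAT2 2.1.0 and deposited raw counts per gene from featureCounts 1.6.0, counting the ends of a pair separately, ignoring strand and dropping multi-mapping reads, so genes that overlap others have uncertain counts. The authors also deposited expected counts and TPM from STAR 2.7.6 and RSEM 1.2.31. TPM served to compare genes, and expected counts, rounded, as an alternative. Tables of the authors' own DESeq2 comparisons, with 12 further columns of per-sample values, were not used.

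Genes with at least 10 summed counts entered edgeR 4.0.16 in R 4.3.3 (TMM, glmQLFit, glmQLFTest), with p-values adjusted by Benjamini-Hochberg over all 26596 genes. Standard errors were not fitted directly. Each is the absolute log2 fold change divided by the square root of the edgeR F statistic. For Lep and Retn, with 0 counts in every control, these values do not bound the fold change. A permutation of 3 against 3 cannot give a 2-sided p under 0.1. Log2 ratios of single libraries used CPM + 0.1 and were taken to the mean of the controls' log2 values. Folds over the control mean used the mean CPM. Floors of 3 counts and exact 95% intervals cover counting error only. Both treat counts as independent although the ends of a pair were counted separately. The intervals are therefore too narrow, and 3 counts can be fewer than 3 fragments. P-values from all 6 libraries treat them as independent, although E420 and E435, and E423 and E440, were far closer than the other pairs. They therefore need not measure the spread between embryos in general. Alternatives were DESeq2 1.42.0, other scalings and filters, RSEM counts, summed close pairs and left-out libraries. The steps were run on simulated counts, drawn independently for each library with the same spread setting for all genes. These counts held no close pairs, so they cannot show how the tests behave with the present libraries.

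The genes, classes and lists were chosen with earlier results of these data known. All 42 genes are named, with the targeted genes, at most 3 of the most abundant markers per list, and, of the 50 further genes, the 3 largest differences in each direction among those whose groups did not overlap. Other genes named were chosen after their values were seen.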

Additional observations from a re-analysis of the deposited data

How the results depend on the processing

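All 12 fat-cell-specific genes kept a positive log2 fold change under the 16 alternatives wherever they could be fitted, and 38 of the 42 genes kept their sign. The exceptions had small differences. With single libraries left out, log2 fold changes ran from -0.40 to 0.20 for Rbp4 (above 0 without control E434, mutant E423 or mutant E440), -0.24 to 0.0058 for Acly (above 0 without control E435), -0.53 to 0.040 for Scd1 (above 0 without control E434) and -0.079 to 0.25 for Agpat2 (below 0 without mutant E440). Agpat2 was also -0.029 in edgeR and -0.022 in DESeq2 with close pairs summed. The number of the 42 called higher was 0 with edgeR (0.0338% of all genes) and 17 with DESeq2 (1.62%). With edgeR it was 2 without a low-count filter and 0 to 21 when each library was left out (21 without E433, 2.84%). It was 25 without E433 and E434 (5.66%) and 0 on summed pairs (0%). With DESeq2 it was 23 without E433 (3.73%) and 6 on summed pairs (0.328%). For the 50 further lipid genes, the counts were 5 with DESeq2 (1.62%), 1 with edgeR's robust option, 1 without a filter and 0 to 7 when each library was left out. They were 9 without E433 and E434 (5.66%), 8 with DESeq2 without E433 (3.73%) and 3 with DESeq2 on summed pairs (0.328%). The 20 genes whose mutants all lay above the controls (6.81% of all genes) became 36 without E433, where E423 and E440 lay above all controls for 23.7% of all genes. Separation is thus more common over all genes with fewer mutants. The number was also 36 without E433 and E434, 36 in the libraries of DESeq2 without E433, and 20 to 36 over single left-out libraries. The 0 whose mutants all lay below (8.21% of all genes) became 0 to 2 over single left-out libraries and 1 with summed pairs in either tool. They became 3 without E433 and E434 and 1 in DESeq2 without E433. Where no share over all genes is printed in this paragraph, none was taken. Those counts of called or separated genes therefore cannot be read against all genes. The fat-cell-specific median of 4.18 was 2.72 with filterByExpr, which left 10 of the 12 genes. DESeq2 without E433 and DESeq2 on summed pairs were chosen after seeing the data. No paired analysis was possible because the labels give no replicate numbers that tie a control to a mutant. The cause of these changes was not tested. Low counts limit Lep, Retn, Cfd, Pck1, Mogat1 and Adrb3 to wide ranges.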

Other observations

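The 12 brown adipocyte markers had a median log2 fold change of 0.42, with 10 positive. The mutants all lay above the controls for 3 (6.81% of all genes) and all below for 1 (8.21%). With edgeR 0 passed the limits and 5 were higher at an unadjusted p under 0.05 (5.9%), and DESeq2 called 5 higher (1.62%). Their summed level was 129 to 157 CPM in controls and 140 to 194 CPM in mutants. Otop1, a proton channel gene, had 0 CPM in each control and 1.44, 1.58 and 0.0928 CPM in mutants E423, E440 and E433. Ucp1, the uncoupling protein that defines brown fat, had at most 0.0441 CPM in controls, 0.890 and 0.845 CPM in mutants E423 and E440 and 0 CPM in E433. Both were named after their values were seen.

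The 8 preadipocyte markers, led by Dlk1, Pdgfra and Cd34, had a median log2 fold change of 0.08, with 4 positive and 4 negative. The negative ones were Pdgfra (-0.37), Pdgfrb (-0.37), Zfp423 (-0.23) and Dlk1 (-0.03), while Cd34 and Dpp4 were at 0.20 and 0.29. The genes Ly6a and Pi16, which mark mesenchymal progenitors of fat and were named after their values were seen, stood out for similar levels in all 3 mutants. Pi16 had 19.1, 20.6 and 19.9 CPM in controls E420, E435 and E434 and 36.2, 34.7 and 35.3 CPM in mutants E423, E440 and E433 (log2 fold change 0.83, standard error 0.08, adjusted p = 0.0775 from edgeR), which does not reach the limit on fold change. Ly6a had 5.90, 7.98 and 7.08 CPM in the same controls and 18.2, 17.1 and 15.7 CPM in the mutants. It passed both limits (log2 fold change 1.28, standard error 0.14, adjusted p = 0.0956 from edgeR), as 0.0338% of all genes did.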
